A study of Mus musculus with 7 samples.

Results

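The regions described here are stretches of the mouse genome enriched for 5-methylcytosine (5mC) that lie at the distal ends of the autosomes. They were chosen by position alone, as the active regions whose midpoint falls in the last 5 Mb of an mm10 autosome. There were 6625 of them, out of 130882 active regions on the 19 autosomes and 133337 in the whole series. Active regions are the authors' merged set of all intervals called as enriched in any library, so a region can be called in 1 to 6 libraries.

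The cells were C57BL/6J hippocampal neurons taken at E18.5 and kept for 11 days in vitro. One group of 3 libraries came from cultures given 55 mM KCl, which depolarises neurons, and its 4 h duration comes from the sample titles; the other 3 libraries came from untreated cultures. Both groups received AraC, which acts against dividing cells, during culture. DNA was fragmented and the fragments carrying 5mC were captured with an antibody and sequenced (MeDIP-seq), with the stated purpose of finding targets of neuronal activity at the level of DNA methylation. Neither the labels nor the files tie the 3 libraries of a group to separate cultures or animals, so a p-value here is set against library-to-library spread, part or all of which could be technical. No marker of cell identity is read by this assay, and the neuronal label was not checked.

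Mouse autosomes are acrocentric: the centromere sits at one end, and the long arm runs out to the distal telomere. In mammals most CG dinucleotides are methylated, and the dense CG clusters at many promoters, called CpG islands, mostly are not. An antibody capture depends both on how much of the DNA is methylated and on how many CG sites a fragment holds, so a region shows methylated CG-containing sequence and the absence of one is not a measure of unmethylated DNA.

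The sequences that follow show what such a region can hold at a promoter. Each is the 250 bases before the gene start from RefSeq (GRCm38.p6, whose coordinates are those of mm10), given 5′ to 3′ on the strand of the gene, with CG dinucleotides in capitals. The first 4 are the promoters with the highest region called in all 6 libraries that overlapped the 300-base promoter window (250 bases before to 50 after the start) by at least 150 bases. These belong to Tmem267, which encodes a transmembrane protein, Sycp2, which encodes a component of the synaptonemal complex of meiosis, the hair follicle keratin gene Krt75, and Tdrd1, which encodes a Tudor domain protein of the germline piRNA pathway.

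Tmem267, chr13:119487836-119488085, + strand: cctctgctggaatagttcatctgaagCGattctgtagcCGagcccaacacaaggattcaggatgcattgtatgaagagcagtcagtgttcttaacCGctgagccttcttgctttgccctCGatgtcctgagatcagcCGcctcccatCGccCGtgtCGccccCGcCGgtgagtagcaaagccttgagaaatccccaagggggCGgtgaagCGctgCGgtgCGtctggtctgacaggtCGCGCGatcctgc
Sycp2, chr2:178407659-178407908, - strand: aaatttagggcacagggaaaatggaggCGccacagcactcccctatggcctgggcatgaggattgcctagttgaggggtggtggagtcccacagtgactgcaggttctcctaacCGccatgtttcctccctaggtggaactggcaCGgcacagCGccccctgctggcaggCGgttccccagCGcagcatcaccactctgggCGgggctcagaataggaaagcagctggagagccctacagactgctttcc
Krt75, chr15:101573905-101574154, - strand: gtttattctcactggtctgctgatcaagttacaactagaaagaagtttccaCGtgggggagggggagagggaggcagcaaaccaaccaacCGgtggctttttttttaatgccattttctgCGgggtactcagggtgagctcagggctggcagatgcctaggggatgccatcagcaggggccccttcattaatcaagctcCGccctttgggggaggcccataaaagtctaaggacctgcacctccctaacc
Tdrd1, chr19:56825959-56826208, + strand: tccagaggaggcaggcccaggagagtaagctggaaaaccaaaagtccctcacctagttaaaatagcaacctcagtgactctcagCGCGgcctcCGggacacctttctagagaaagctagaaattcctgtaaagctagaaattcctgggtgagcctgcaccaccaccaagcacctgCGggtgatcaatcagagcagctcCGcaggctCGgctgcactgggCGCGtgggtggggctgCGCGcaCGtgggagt

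The regions over them were chr13:119487671-119489381 at Tmem267, chr2:178406980-178407827 at Sycp2, chr15:101573576-101574055 at Krt75 and chr19:56826092-56826777 at Tdrd1. At Tmem267 the region covered the whole printed stretch, and at the other 3 it covered its gene-side part. For contrast, 2 promoters with no active region follow, those of Hes5, a Notch target encoding a transcriptional repressor of neurogenesis, and Isl1, which encodes a LIM homeodomain factor of motor neuron development.

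Hes5, chr4:154960673-154960922, + strand: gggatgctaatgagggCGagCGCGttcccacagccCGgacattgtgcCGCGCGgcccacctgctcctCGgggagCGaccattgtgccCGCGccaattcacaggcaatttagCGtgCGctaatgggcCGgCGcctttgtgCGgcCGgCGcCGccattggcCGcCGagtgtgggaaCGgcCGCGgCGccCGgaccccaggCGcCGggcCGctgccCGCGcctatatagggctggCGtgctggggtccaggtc
Isl1, chr13:116309689-116309938, - strand: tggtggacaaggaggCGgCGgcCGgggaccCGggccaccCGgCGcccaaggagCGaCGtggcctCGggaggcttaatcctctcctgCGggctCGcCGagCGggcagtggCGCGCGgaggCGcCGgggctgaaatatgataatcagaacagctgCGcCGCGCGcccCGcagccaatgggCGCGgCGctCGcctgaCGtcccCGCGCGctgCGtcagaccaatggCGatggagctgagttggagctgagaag

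The printed stretch held 17 CG at Tmem267, 7 at Sycp2, 4 at Krt75 and 11 at Tdrd1, against 32 at Hes5 and 33 at Isl1. Hes5 and Isl1 were picked for having the most CG in the promoter window among the genes of the lists below with no region. Their higher CG counts were therefore set by the choice and are no result. The dinucleotide CG reads the same on both strands, and at least 1 was present in 95.6% of the distal promoter windows and in 95.6% of those elsewhere.

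Active regions were denser at the distal ends than on average in the rest of the same autosomes, but not at the tips. Summed over autosomes, the last 5 Mb was sparser than the adjacent sequence, between 5 and 10 Mb from the end. The last 5 Mb of the 19 autosomes held 69.7 regions per Mb, against 52.5 per Mb in the rest of the same autosomes, a ratio of 1.33. With 3.86% of the autosomal length, the distal ends held 5.06% of the autosomal regions. Within them the density split by distance from the end: 39.5 regions per Mb lay in the last 2 Mb, against 89.9 per Mb between 2 and 5 Mb. The tips were therefore below the 52.5 per Mb of the rest, and the stretch behind them above it.

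In KCl replicates 1, 2 and 3 the distal ends held 48.5, 33.1 and 19.7 called regions per Mb, against 36.4, 23.6 and 13.4 in the rest of the autosomes. In untreated replicates 1, 2 and 3 they held 44.7, 46.9 and 38.7 per Mb, against 33.7, 34.0 and 28.3 in the rest. The distal density was thus higher in 6 of 6 libraries, with a mean log2 ratio of 0.46 ± 0.055 (SD, n = 6). An exact sign-flip permutation test over libraries, two-sided, gave p = 0.03125, the smallest that 6 libraries allow. The libraries share 1 genome, and the test asks only whether the ratio holds from library to library.

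The last 2 Mb held 26.8, 18.3 and 10.6 regions per Mb in KCl replicates 1, 2 and 3, and 24.8, 26.1 and 21.7 per Mb in untreated replicates 1, 2 and 3. The stretch from 2 to 5 Mb held 63.0, 42.9 and 25.9 per Mb in the KCl libraries and 58.0, 60.8 and 50 per Mb in the untreated ones. In every library the tip was below the rest of the autosomes and the stretch behind it was above. The log2 ratio of the last 2 Mb to the 2 to 5 Mb stretch was -1.23 ± 0.031, that of the last 2 Mb to the rest was -0.39 ± 0.040, and that of the 2 to 5 Mb stretch to the rest was 0.84 ± 0.060 (SD, n = 6; exact sign-flip p = 0.03125 for each, two-sided). This split at 2 Mb was chosen after the distance profile had been seen. No region lay in the final 100 kb of any autosome, where the assembly has a gap, and without those 100 kb the last 2 Mb still held only 41.6 regions per Mb.

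**Figure D1:**
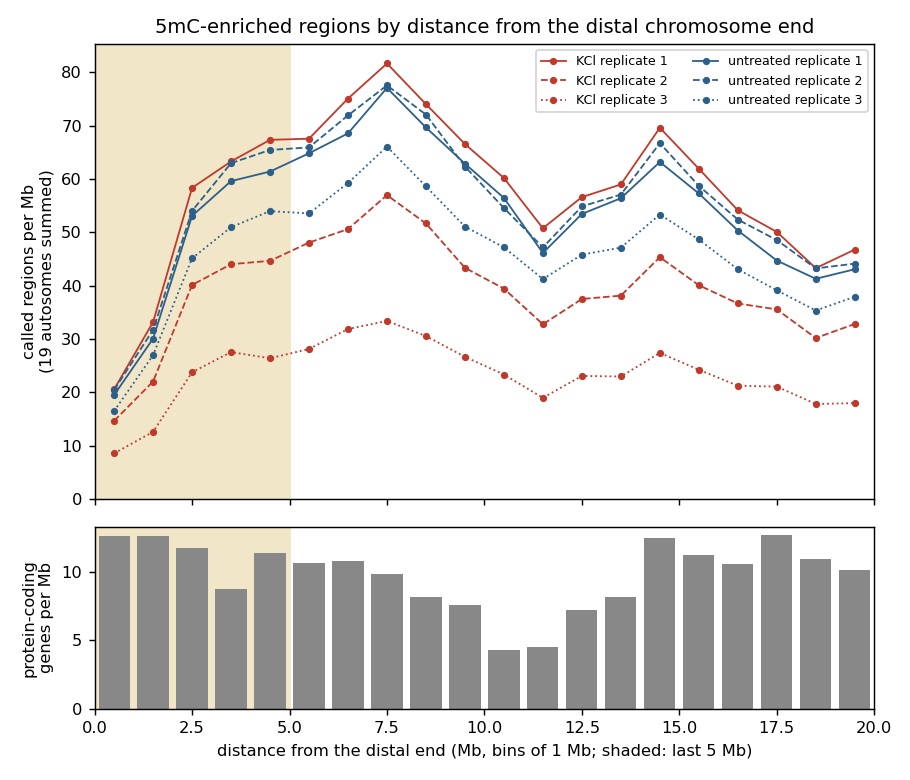
Called regions per Mb (upper panel) and protein-coding genes per Mb (lower panel) in 1 Mb bins by distance from the distal end, summed over the 19 autosomes, with a line for each KCl and untreated library and the last 5 Mb shaded. In all 6 lines the first bin is the lowest of the 20, and the highest value lies between 7 and 8 Mb, while genes are about as dense in the first 2 bins, at 12.6 per Mb, as in the densest bin, at 12.7.

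Over all active regions the 5 bins of 1 Mb counted from the tip held 30.2, 48.8, 83.4, 91.6 and 94.6 regions per Mb. The density went on up to 115 per Mb between 7 and 8 Mb and was 68.8 per Mb between 19 and 20 Mb. The end of the 5 Mb window was therefore no edge in the data. From 5 to 10 Mb the bins held 95.5, 104, 115, 106 and 93.2 regions per Mb, each above the 69.7 of the last 5 Mb. The distal excess is thus one over the average of the rest and not over the adjacent sequence. No test was run between the last 5 Mb and that sequence. The 19 regions just inside that line, 1 per autosome and 1.15 to 73.5 kb from it, had a median mean height of 13.8, and the 19 just outside, 2.33 to 77.4 kb away, had 16. Closest to any chromosome end were a region on chromosome 14 at 102 kb, called in 1 library, a region on chromosome 10 at 102 kb, called in all 6, and a region on chromosome 7 at 105 kb, called in 1.

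The centromeric end served as a comparison. Active regions between 3 and 8 Mb from the start of the autosomes, just past the assembly gap, numbered 4284, or 45.1 per Mb, against 69.7 per Mb distally, a ratio of 1.55. The log2 ratio of distal to proximal density was 0.62 ± 0.021 and above 0 in 6 of 6 libraries (SD, n = 6; exact sign-flip p = 0.03125, two-sided).

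The excess was not shared by every chromosome. On 14 autosomes the last 5 Mb was denser than the rest of the autosome, and on chromosomes 3, 12, 13, 17 and 18 it was sparser. Each of these 19 directions held in all 6 libraries. The densest distal end was that of chromosome 4, with 138.4 regions per Mb against 53.8 in its rest (ratio 2.57). Chromosome 11 followed with 110.6 against 60.8 (1.82), and chromosome 5 with 103.0 against 61.2 (1.68). The sparsest was chromosome 17, with 16 per Mb against 64.9 (0.247), and chromosome 3 had 16.8 against 43.3 (0.388). Among 472 windows of 5 Mb that tile the autosomes, the distal windows of chromosomes 4, 11 and 5 ranked 8, 19 and 28 by number of regions, and those of chromosomes 3 and 17 ranked 458 and 465. Within its own chromosome the distal window was the densest on chromosome 19 alone and among the 3 densest on 5 autosomes.

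Most autosomes were sparser at the tip than in the stretch behind it. On 18 of 19 autosomes the last 2 Mb was sparser than the 2 to 5 Mb stretch, the exception being chromosome 7 with 60 against 55.3 regions per Mb. The contrast was wide on chromosome 8, with 19 per Mb in the last 2 Mb against 109.3 between 2 and 5 Mb, and on chromosome 14, with 15.0 against 95.3. The last 2 Mb was below the rest of its own autosome on 13 and above it on 6, which were chromosomes 2, 4, 5, 7, 11 and 16. Against the same rest, the 2 to 5 Mb stretch was above on 14 autosomes.

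**Figure D2:**
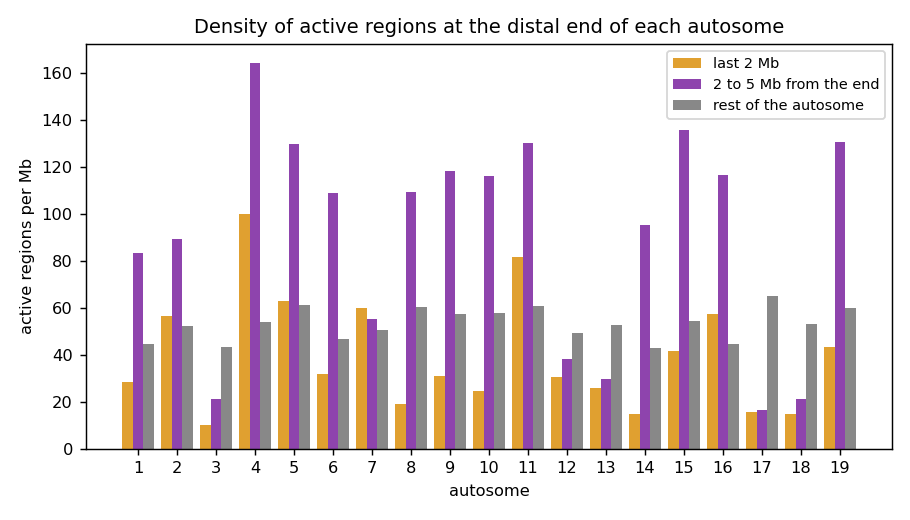
Active regions per Mb on each autosome, as bars for the last 2 Mb, the stretch from 2 to 5 Mb from the end and the rest of the autosome, over all libraries together. The 2 to 5 Mb bar is above the bar of the rest on 14 autosomes, and the bar of the last 2 Mb is below that of 2 to 5 Mb on all but chromosome 7.

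Over all autosomes together, the distal ends were also richer in genes, though not on every autosome. The distal ends held 1087 protein-coding genes, 11.4 per Mb against 8.27 per Mb in the rest, a ratio of 1.38, so that counted per gene the distal ends had 6.09 regions and the rest had 6.35. Genes were denser distally on 10 of 19 autosomes, and regions per gene were higher distally on 12. On 15 of 19 autosomes the distal end differed from the rest in the same direction for regions and for genes. Across the 19 distal windows the numbers of regions and genes had a Pearson r of 0.56 and a Spearman coefficient of 0.73, and across all 472 windows 0.44 and 0.59; windows of 1 chromosome are neighbours, and these values are descriptions. Summed over autosomes, the last 2 Mb held more genes than the 2 to 5 Mb stretch, 12.6 against 10.6 per Mb, and fewer regions, so that regions per gene came to 3.13 against 8.44. Genes were denser in the last 2 Mb on 8 of 19 autosomes, so the summed excess of genes rests on a minority of them, such as chromosome 10 with 80 genes in the last 2 Mb against 82 between 2 and 5 Mb. On chromosome 8, with 6 genes against 30, genes and regions were both sparser at the tip. The kinds of gene differed too. Olfactory receptor genes numbered 58 in the last 2 Mb and 10 between 2 and 5 Mb, vomeronasal receptor genes 6 and 0, and keratin genes 0 and 31. What part gene kind or gene length has in the density was not tested.

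**Figure D3:**
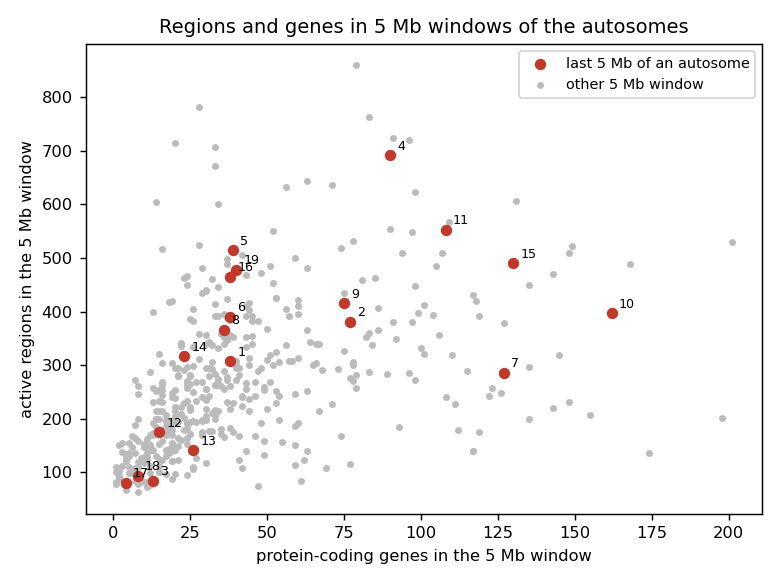
Active regions against protein-coding genes in each 5 Mb window of the autosomes, with the 19 distal windows in red under their chromosome number and the other windows in grey. The distal windows run from 80 regions and 4 genes on chromosome 17 to 692 regions and 90 genes on chromosome 4, and chromosome 10 has the most genes, 162, with 397 regions.

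Regions at the distal ends lay in genes more often than those elsewhere, as did the sequence itself. The midpoint was inside a protein-coding gene for 3702 of the 6625 regions (55.9%), against 51.9% in the rest, while genes covered 44.3% of the distal length and 39.8% of the rest. The density was higher distally both inside and outside genes. Over all active regions it was 87.9 per Mb against 68.5 inside gene bodies (ratio 1.28), and 55.2 against 41.9 outside them (1.32). With each library's called regions, the mean log2 ratio was 0.41 ± 0.051 inside and 0.44 ± 0.053 outside (SD, n = 6 libraries, above 0 in 6 of 6, exact sign-flip p = 0.03125 for each, two-sided).

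The genes with the most distal regions were long genes. Cdh4, which encodes R-cadherin, a cell adhesion molecule, held 77 regions over 457 kb of chromosome 2 (179442423 to 179899377), of which 18 were called in all 6 libraries. Atrnl1, encoding an attractin-like transmembrane protein, held 72 (chromosome 19, 57610960 to 58133343). Camta1, which encodes a calmodulin-binding transcription activator, held 61 distal regions of 161 in the whole gene. Itpr2, for an inositol trisphosphate receptor that releases calcium from the endoplasmic reticulum, held 58, and Prdm16, for a transcription factor of neural and brown fat development, held 55. Clybl, a mitochondrial citramalyl-CoA lyase gene, held 44, the microtubule-associated gene Mtus2 held 43, and Fry held 41. Per 100 kb of gene, Camta1 had 20.1 regions, Clybl had 19, Cdh4 had 16.9 and Fry had 10.8. In all, 692 of the 1087 distal genes (63.7%) had a region in the body.

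Summit heights, in contrast to numbers, were close to those elsewhere. A height is the authors' value at the highest point of an interval; heights were whole numbers that read like a pileup of fragments, and any scaling of them between libraries is not stated. Of the distal regions, 1482 (22.4%) were called in all 6 libraries, against 20.4% of those in the rest and 20.5% of all active regions. Among these, the median height in KCl replicates 1, 2 and 3 was 30, 23 and 16 distally against 29, 22 and 16 in the rest. In untreated replicates 1, 2 and 3 it was 27, 30 and 24 distally against 26, 29 and 23 in the rest. The difference of medians on the log2(height + 1) scale was 0.045 ± 0.023 (SD, n = 6), higher distally in 5 of 6 libraries and 0 in KCl replicate 3, and did not pass the test (exact sign-flip p = 0.0625, two-sided). With means in place of medians it was 0.037 and higher in 6 of 6 (exact sign-flip p = 0.03125). Of the 300 highest regions called in all 6 libraries, 20 (6.67%) were distal, where 5.52% of all autosomal regions called in all 6 libraries were. The median width of an active region was 374 bp distally and 357 bp in the rest.

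The highest distal region was at Tmem267 (chromosome 13, 119487671 to 119489381), over the promoter sequence given above. Its height was 332, 251 and 212 in the KCl libraries, against 287, 322 and 225 in the untreated libraries, and it ranked 2 among all regions called in all 6 libraries. The groups overlapped.

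In Cth (chromosome 3, 157911404 to 157912012), which encodes cystathionine gamma-lyase, a cysteine-producing enzyme, the heights were 167, 137 and 106 in KCl and 158, 155 and 124 in untreated libraries. In Sycp2 (chromosome 2, 178406980 to 178407827) they were 185, 128 and 97 in KCl and 156, 169 and 109 in untreated libraries. These regions also overlapped between the groups. A region 11891 bp from Pdx1, the pancreatic homeobox gene (chromosome 5, 147257906 to 147258506), had 173, 134 and 101 in KCl and 140, 171 and 117 in untreated libraries. In Mobp, the gene of a myelin-associated oligodendrocyte protein (chromosome 9, 120174015 to 120174661), the values were 156, 120 and 75 in KCl and 119, 147 and 106 in untreated libraries. In these 5 regions KCl replicate 3, the library with the fewest called intervals, was the lowest of the 6 libraries. The highest distal region of 13 other autosomes had mean heights between 44.8, near Tmx3 on chromosome 18, and 119, in the potassium channel gene Kcnh1 on chromosome 1.

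**Figure D4:**
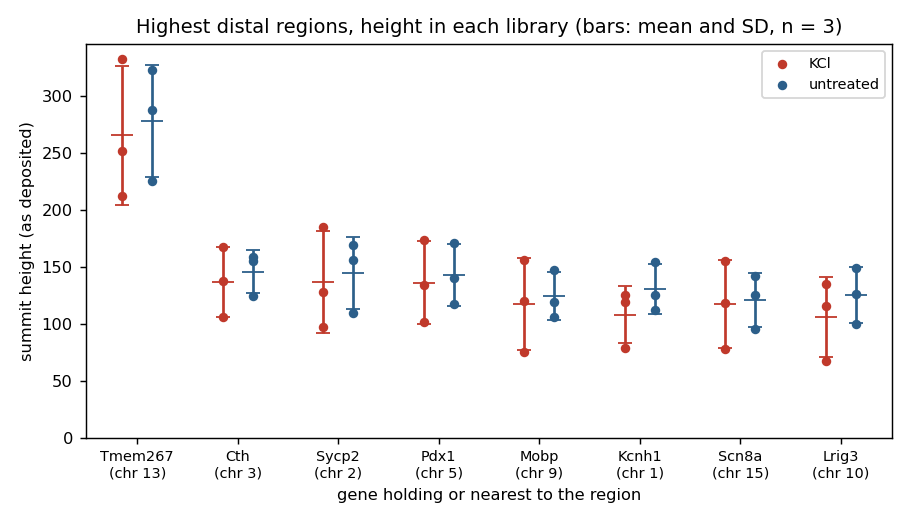
Summit height, as deposited, in each library at the highest distal region of 8 autosomes, KCl to the left of untreated, with the mean and SD of 3 libraries. The Tmem267 region stands above the others at 212 to 332, and the KCl and untreated points overlap at all 8 regions.

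Promoters at the distal ends were overlapped by a region more often than promoters elsewhere. Of 1091 distal promoter windows of protein-coding genes, 50 (4.58%) overlapped an active region, against 561 of 18993 (2.95%) in the rest. In the KCl libraries the shares were 3.76%, 3.30% and 2.38% distally against 2.33%, 1.84% and 1.24% in the rest, and in the untreated libraries 3.57%, 3.94% and 2.75% against 2.21%, 2.36% and 2.00%. The difference was 1.29 ± 0.30 percentage points and above 0 in 6 of 6 libraries (SD, n = 6; exact sign-flip p = 0.03125, two-sided). As with density, this test asks only whether the difference holds from library to library. Region density as a whole was also higher distally, at a ratio of 1.33, and whether the promoter share went beyond that was not tested. Windows with a region held a median of 9.5 CG per 300 bases distally, against 17 in those without. In the rest of the autosomes the contrast was alike, at 8 against 14. The share peaked at intermediate CG content: 18 of 142 distal windows with 6 to 10 CG had a region (12.7%), against 206 of 2402 (8.58%) in the rest, and at 21 or more CG, where Hes5 and Isl1 lie but also Tmem267 with 22 CG and Krt7 with 21, 6 of 441 (1.36%) against 55 of 6548 (0.840%).

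**Figure D5:**
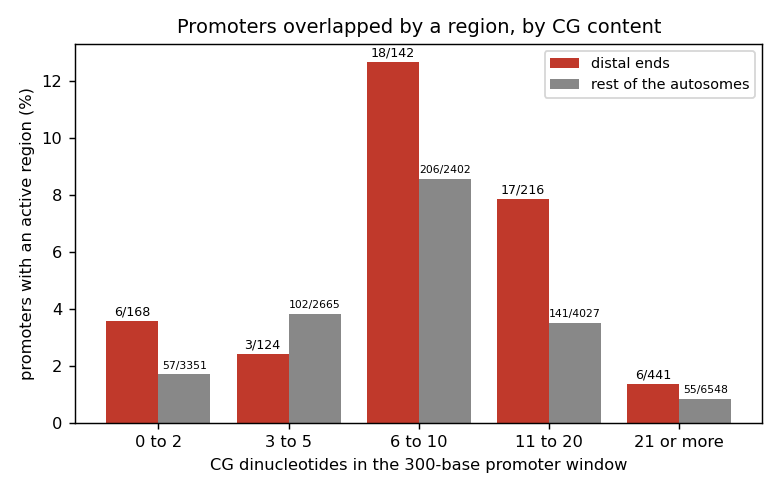
Share of protein-coding promoter windows (300 bases) that overlap an active region, by number of CG dinucleotides in the window, at the distal ends and in the rest of the autosomes, with the counts above each bar. The distal bar is higher in 4 of the 5 classes and lower at 3 to 5 CG, where it rests on 3 of 124 windows.

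At Krt75 the promoter region had heights of 79, 60 and 43 in KCl and 82, 81 and 58 in untreated libraries, and at Tdrd1 82, 60 and 32 in KCl and 74, 79 and 62 in untreated libraries. In all, 19 of the 1091 distal windows, which belonged to 886 genes, overlapped a region called in all 6 libraries by at least 150 bases. These 19 windows lay on 16 distinct regions. The same count was not made for the rest of the autosomes, so it is a description. Besides those printed, the 19 included the windows of Pcca, Ppp1r27, Tuba3b, Krt72, Fam186a, Ccdc172, Topaz1, Cldn14, Rapgef5, Fignl2, Krt7 and Igfbp6. Those of Krt75, Krt72, Fam186a, Fignl2, Krt7 and Igfbp6 all lay on chromosome 15. At Topaz1 the heights were 25, 19 and 17 in KCl and 34, 26 and 19 in untreated libraries. The groups overlapped at Krt75, Tdrd1 and Topaz1.

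The imprinted domain of distal chromosome 7, in which many genes are expressed from 1 parental copy, is a known site of parent-specific methylation. Of its 18 listed genes, 11 had a region in the body or within 1 kb, against 735 of all 1087 distal genes (67.6%). The highest was at Cdkn1c, a cell cycle inhibitor gene (143459425 to 143461657), with a mean height of 72.7 ± 21.8 in KCl and 90.7 ± 17 in untreated libraries (SD, n = 3 each). Osbpl5, for an oxysterol-binding protein, had 36 ± 6.56 in KCl and 52.3 ± 19.9 in untreated libraries. A region shared by Kcnq1 and its antisense transcript Kcnq1ot1 (143295020 to 143296679) had 34.3 ± 9.29 in KCl and 36 ± 9.54 in untreated libraries. Ascl2, Phlda2, Cd81 and the insulin gene Ins2 were among the 7 with none.

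At H19, the maternally expressed non-coding RNA gene, the region (142576582 to 142577190) had heights of 52, 32 and 25 in KCl and 37, 58 and 36 in untreated libraries. It also held the hairpin of Mir675 (142577064 to 142577147, minus strand), which is cut from the H19 RNA. Of 57 miRNA hairpins at the distal ends 6 overlapped a region, and those of Mir675 and Mir7005 (chromosome 2) lay in one called in all 6 libraries. Their mature arms, from RefSeq, are shown 5′ to 3′ with the seed (bases 2 to 8) in capitals; the 12 arms of the 6 hairpins carried 12 different seeds.

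mmu-miR-675-5p: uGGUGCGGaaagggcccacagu
mmu-miR-675-3p: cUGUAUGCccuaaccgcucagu
mmu-miR-7005-5p: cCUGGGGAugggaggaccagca
mmu-miR-7005-3p: cUGUGCCUgcuacccaucccuugca

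The Mir7005 region had heights of 17, 15 and 12 in KCl and 13, 17 and 14 in untreated libraries, so it was far lower than that of Mir675 and, like it, overlapped between the groups.

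Of 15 distal receptor and ion channel genes 14 had a region in the body or within 1 kb, where the share of all distal genes was 67.6%. The highest lay in Chrna4, a nicotinic acetylcholine receptor subunit, at 97.3 ± 18.1 in KCl and 104 ± 21.9 in untreated libraries. Kcnab2, a potassium channel beta subunit, had 76.3 ± 22.5 in KCl and 84.0 ± 13.1 in untreated libraries, and the sodium channel gene Scn10a had 76.3 ± 19.5 in KCl and 79.0 ± 19.3 in untreated libraries (SD, n = 3 each). All 17 distal genes of the synaptic and adhesion list had a region, beside the same 67.6%. Cbln2, Neto1 and Lrrc7 counted through 1 region each, called in 1 library, and the 67.6% includes such regions too. Rbfox3, whose product NeuN is used as a neuronal marker, had 88.3 ± 16.3 in KCl and 92.7 ± 6.03 in untreated libraries. Many of these genes are long, a longer gene has more room for a region, and no difference between a list and the other genes was tested.

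Of 24 distal developmental transcription factor and Polycomb genes 14 had a region (58.3%), near the 67.6% of all distal genes. Erg, an ETS factor of blood vessels, had the highest, at 84.7 ± 23.4 in KCl and 102 ± 11.1 in untreated libraries. Ski, a repressor of TGF-beta signalling, had 48.0 ± 11.3 in KCl and 49.7 ± 16.5 in untreated libraries, and Cbx2, a Polycomb subunit, 35.3 ± 13.6 in KCl and 45.3 ± 3.21 in untreated libraries (SD, n = 3 each). The homeobox genes Gsx1, Cdx2, Pdx1, Isl1, Hoxc8, Hoxc10 and Hoxc13 had none, nor had Sox18, Gata5 and Hes5. Other homeobox genes of the list did: Emx2 had 6 regions, the highest called in 5 libraries, and Hoxc4 had 1, called in 2. In the keratin cluster of chromosome 15, genes of epithelia and hair, 18 of 21 genes had a region (85.7%). Krt78 was the highest at 74.0 ± 23.3 in KCl and 84.7 ± 12.7 in untreated libraries.

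Of 5 distal immediate early and activity-induced genes, a class switched on when neurons fire, 3 had a region (60%), near the share of all distal genes. Csrnp1 had a height of 29.0 ± 12.5 in KCl and 40 ± 4.58 in untreated libraries, the stress response factor gene Atf3 had 21 ± 4.58 in KCl and 25 ± 3.46 in untreated libraries, and the nuclear receptor gene Nr4a1 had 19 ± 3.61 in KCl and 23.3 ± 0.577 in untreated libraries (SD, n = 3 each). Socs3 and Camk1g had none.

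The share of distal regions did not pass the test between the groups. Of a library's called autosomal regions, 5.33% ± 0.248 were distal in KCl and 5.17% ± 0.101 in untreated libraries (SD, n = 3 each). A two-sided exact permutation test gave p = 0.4, where 0.1 is the smallest that 3 against 3 can reach. The share was highest in KCl replicate 3, at 5.58% of 33645 called regions, and lowest in untreated replicate 1, at 5.05% of 84069. When each library kept only its 34834 highest intervals the difference of 0.158 percentage points turned to -0.093 (exact permutation p = 0.3). Taken as same-numbered pairs, the share was higher in KCl in 3 of 3 pairs, at 5.08% against 5.05%, 5.32% against 5.24% and 5.58% against 5.21%. With equal numbers of intervals it was lower in KCl in 3 of 3, at 5.41% against 5.47%, 5.47% against 5.67% and 5.58% against 5.59%. The distal height difference was 0.036 ± 0.032 in KCl and 0.053 ± 0.0058 in untreated libraries on the log2 scale (SD, n = 3 each; two-sided exact permutation test, p = 0.7).

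Nor was a single distal region called. limma compared 1146 distal regions among 20537 tested, and 0 passed an adjusted p of 0.05 (0% of all tested), the lowest adjusted p being 0.932 with heights as deposited and 1.00 after median centring. Heights as deposited were lower in KCl by a median of 0.25 on the log2 scale over all tested regions, by 0.02 without KCl replicate 3 and by 0.46 without KCl replicate 1. Single changes are given relative to that median. At an unadjusted p under 0.05 after centring, 17 distal regions were higher (1.97% of all tested regions were) and 22 lower (1.67%). As deposited, 0 distal regions were higher (0% of all tested) and 14 lower (1.12%). Relative to the median, 562 of the 1146 distal regions lay above and 584 below, or 49.0% above against 50.1% of the other tested regions.

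The distal regions with the lowest unadjusted p after median centring were not called, and their values are descriptions. In Stard13 (chromosome 5, 151039327 to 151039837) the height was 32, 21 and 21 in KCl and 10, 27 and 14 in untreated libraries, a relative log2 change of 0.84 ± 0.25 (SE; limma after centring, adjusted p = 1.00). The groups overlapped. Near Lmntd1 (chromosome 6, 145456962 to 145457469) it was 24, 24 and 18 in KCl and 14, 19 and 14 in untreated libraries. Regions in Camta1, Cdh4 and Prdm16 followed, with relative log2 changes of 0.60, 0.50 and 0.33.

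In Sim2, a bHLH-PAS transcription factor gene (chromosome 16, 94109152 to 94109969), the heights were 32, 24 and 12 in KCl and 37, 38 and 39 in untreated libraries, a relative log2 change of -0.57 ± 0.20 (SE; limma after centring, adjusted p = 1.00). Each deposited KCl height was below each untreated one, as in 55 of the 1146 distal regions tested (4.8%) and in 4.14% of all tested regions. The reverse, each KCl height above each untreated one, held in 0 of the 1146 distal regions and in 0.0292% of all tested regions. A second region of Cdh4 (chromosome 2, 179534511 to 179535096) had 62, 43 and 28 in KCl and 72, 63 and 67 in untreated libraries and did not overlap either. Cdh4 thus held both a region among the 5 leading higher ones and a region among the 5 leading lower ones. A region in Ablim1, an actin-binding protein gene, and one 77863 bp from Ins2 also had every KCl library below every untreated one, with relative log2 changes of -0.53 and -0.54. Near Rnf213 (chromosome 11, 119489123 to 119489582) the groups overlapped, at 48, 20 and 17 in KCl and 49, 43 and 44 in untreated libraries.

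Few distal regions were called in 1 group alone. Just 1 distal region was called in all 3 KCl and no untreated library (0.0367% of all active regions were), 13411 bp from Cog2 on chromosome 8 (124507192 to 124507520), with heights of 9, 10 and 11. In the other direction 67 distal regions (1.01%) were called in all 3 untreated and no KCl library, the same 1.01% as over all active regions. The highest lay 14794 bp from Atrnl1, with untreated heights of 20, 15 and 19. The next had 17, 19 and 17, and its nearest protein-coding gene, Lrriq3, was 555368 bp away. The third lay in Kcnab2, with 13, 21 and 18. With equal numbers of intervals per library the counts were 14 called in KCl only (0.211%, against 0.171% of the regions in the rest) and 15 in untreated only (0.226% against 0.193%). Without KCl replicate 3 they were 57 (0.860% against 0.825%) and 75 (1.13% against 1.13%), and without KCl replicate 1 they were 3 (0.0453% against 0.0692%) and 326 (4.92% against 5.24%).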

How the data were processed

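5mC enrichment (MeDIP-seq) was analysed in 3 KCl and 3 untreated libraries; the pooled input was not analysed here. A service company built and analysed the libraries, per the labels' protocols; the submitters' processing notes name BWA (alignment), SICER (region calling) and mm10, with no version. The deposited file held 13 tracks, per the file headers: called intervals and summits for each library, and the active regions. Summit heights are deposited as a score in whole numbers. Sequencing depth is unknown, so counting intervals cannot be given; the libraries held 93470, 60949 and 34834 intervals (KCl) and 87151, 87302 and 72947 (untreated).

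A region's height in a library was that of the highest summit inside it; a region was distal if its midpoint lay in the last 5 Mb. Densities were compared by exact sign-flip permutation over libraries, and groups by exact permutation (scipy 1.17.1). Heights of regions called in all 6 libraries with a mean height of at least 18.67 (the 25th percentile) were tested as log2(height + 1) in limma 3.58.1 (R 4.3.3), letting the variance follow height, with Benjamini-Hochberg adjustment over all regions tested, at 0.05, two-sided; fold changes on this scale understate those of low regions. The test was run on simulated data first. The centred fit subtracts each library's median. Genes, promoters and miRNAs came from RefSeq (GRCm38.p6); of 31395 promoter windows matched to a gene, 20084 were protein-coding. The gene table has no exons, so exons, introns and UTRs were not assigned. Coordinates are 1-based.

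Deviations of same-numbered libraries from their group means correlated at 0.110, 0.113 and 0.152, all above 0.1, so the numbers were taken to pair the libraries. What a number stands for is not stated. The main tests between the groups did not use these pairs, which entered as a replicate block in a further setting.

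The members and gene lists were chosen with earlier results of these data known. Named were the highest region of each autosome (5 in full; 1 of the 6 highest is not reported here), the 5 lowest p each way, the 8 genes with most regions, up to 4 genes a list by height, the 3 highest regions called in 1 group only, those nearest the 5 Mb line and the chromosome end; list genes with no region and promoters under a region called in all 6 libraries were named after their values were seen. One listed gene, Krt85, was not matched.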

Additional observations from a re-analysis of the deposited data

How the results depend on the processing

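The width of the end window decided the density result. With 2 Mb in place of 5 Mb the log2 density ratio turned to -0.42 against the rest and -0.32 against the proximal end, with 10 Mb these ratios were 0.86 and 0.99, and the width difference with 2 Mb was 1 bp in place of 17. With 2 Mb the ratio turned on chromosomes 1 (-0.66), 6 (-0.58), 8 (-1.69), 9 (-0.92), 10 (-1.27), 14 (-1.56), 15 (-0.45) and 19 (-0.55), and with 10 Mb on chromosomes 3 (0.16), 12 (0.48), 13 (0.18) and 18 (0.28). Counted per protein-coding gene the ratio was -0.00522 (exact sign-flip p = 0.875). Leaving out 1 library gave 0.445 to 0.475 against the rest, 0.611 to 0.622 against the proximal end and -1.24 to -1.22 for the last 2 Mb against the 2 to 5 Mb stretch; 5 libraries allow no exact p below 0.0625. That last ratio also kept its direction and test in the other settings tried, at -1.25 for regions called in at least 2 libraries, -1.28 with equal numbers of intervals, -1.29 for bases covered, -1.16 without the last 100 kb, -1.18 without chromosome 10 and -1.48 per gene, all chosen after seeing the data.

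The height difference was 0.0268 to 0.0631 with 1 library left out and passed with means (0.0366). KCl minus untreated, the distal share ran from 0.0330 to 0.281 with 1 library left out and turned with equal numbers of intervals (-0.0930); the height difference ran from -0.0326 to 0.0141 and turned with all regions called (0.0310) and with 2 Mb (0.0305). Regions called in 1 group only numbered 3 to 57 (KCl) and 75 to 326 (untreated) with 1 library left out, and 14 and 15 with equal numbers of intervals. No setting called a distal region with limma, and the replicate block changed no call (share difference 0.158, exact p = 0.25, the smallest 3 pairs allow; lowest limma adjusted p 0.857). With the block and median centring, 24 distal regions were higher and 25 lower at an unadjusted limma p under 0.05. Among all 20537 tested regions these counts were 551 and 494, and the lowest distal adjusted p was 0.739. The 10 named relative log2 changes kept their sign in each setting that tested them, Stard13 between 0.55 and 1.14 and Sim2 between -0.66 and -0.42. They were picked for low p in these same libraries, so the kept sign is no independent check. The cause of the other changes was not tested. A ratio per CpG site was not run, since no genome was used here. Unknown depth limits all comparisons between libraries.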
